A study of Mus musculus with 7 samples.

Results

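Expression of T lineage transcription factors was examined in thymocytes at the double-positive (DP) stage, which carry both CD4 and CD8, in libraries of 4 genotypes. The set held Tcf7, Lef1, Sox4, Runx1, Runx3, Bcl11b and Ets2. These genes were chosen by name, and all 7 were found among the 12092 gene symbols of the expression table. Lef1 had 2 entries, of which the one with the higher mean FPKM was used. All 7 members passed the filter on low values, a mean FPKM of at least 0.5, as did 12063 genes in all.

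Commitment to the T lineage and survival of DP cells depend on a small network of DNA-binding proteins. Tcf7 encodes TCF-1 and Lef1 encodes LEF-1, related HMG box factors that bind the same DNA motif and can recruit β-catenin or Groucho/TLE co-repressors. Sox4 is another HMG box factor of thymocytes, Runx1 and Runx3 encode RUNX factors that act with the subunit CBFβ, Bcl11b is a zinc finger factor needed for T lineage commitment, and Ets2 belongs to the ETS family. E proteins such as E2A bind E-box DNA and drive the thymocyte program, and Id2 and Id3 are inhibitors that form dimers with E proteins and keep them off DNA. The pre-TCR, in which pTα pairs with the TCR beta chain, is the signal that normally carries thymocytes to the DP stage.

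Poly(A) RNA of sorted TCRγδ- CD4+ CD8+ thymocytes was sequenced, with 1 mouse per library, from littermate mice of mixed B6/129 background, aged 4 to 5 weeks per the labels, of which the methods give the older age. WT had 1 library. pTαKO mice, deficient in pTα, also had 1 library (replicate 2), and replicate 1, which the submitters removed for poor sequencing, was not analysed here. L-DKO mice, in which LckCre deletes floxed Id2 and Id3 (Id2 f/f Id3 f/f LckCre+), had 2 libraries, and L-DKO pTαKO mice, called LP, which carry the same deletion and also lack pTα, had 2. LckCre is driven by an Lck promoter and acts in T lineage cells, so other cells of these mice keep Id2 and Id3. The design asks what loss of Id proteins, of the pre-TCR, and of both does to expression in DP cells. Values are log2(FPKM + 1), where FPKM is fragments per kilobase scaled to the mapped reads of the library, so levels can be compared between genes per length. Sequencing depth is unknown.

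The labels were checked first. Id3 was at 6.22 in WT and 5.25 in pTαKO, and at 1.91 to 3.32 in the 4 Id-deleted libraries. Id2, the other floxed gene, did not separate Id-deleted from Id-intact libraries, since LP replicate 1 (1.92) lay above pTαKO (1.87). The remaining Id2 levels were 3.56 for WT, 0.24 to 1.00 for the L-DKO replicates and 0.99 for LP replicate 2. Ptcra, which encodes pTα, was between 5.06 and 6.62 in all libraries and was not lower in those labelled pTα-deficient. The deleted part of Ptcra is not known here, so this checks nothing. The summed level of 9 of 12 DP markers was between 11.97 and 12.12 in all libraries. Cd4, Cd8a and Cd8b1, which encode the proteins used for sorting, are abundant members of that list. The sum therefore cannot show whether DP identity was alike. Marker sums of other cell types differed between libraries. Markers of double-negative (DN) thymocytes, the preceding stage (7 of 8 measured, Erg with no value), summed to 4.36 to 6.08 in the 3 pTα-sufficient libraries and 7.62 to 7.95 in the 3 pTα-deficient ones. Of these markers Dtx1 was the most abundant in every library, at 3.67 to 5.73 in pTα-sufficient and 7.30 to 7.70 in pTα-deficient libraries. Hes1, Notch1 and Mef2c were also higher in every pTα-deficient library, with Mef2c at only 0.30 in pTαKO, while Il2ra, Kit and Cd44 overlapped. Macrophage markers (11 of 12) summed to 4.93 to 5.39 in the pTα-sufficient and 6.36 to 8.38 in the pTα-deficient libraries, highest in pTαKO. B cell markers (4 of 10) summed to 7.76 in pTαKO and 5.13 to 6.12 elsewhere. Cd74 (6.87 against 3.03 to 4.81) and H2-Aa (5.84 against 1.00 to 3.03) were far higher in pTαKO. Cd79b was at 5.44 there against 4.22 to 5.19, and Ighd was lowest there, at 0.69 against 0.90 to 1.88. Erythroid markers (4 of 6) summed to 9.51 (WT), 9.47 and 11.70 (L-DKO), 11.36 (pTαKO), 11.56 and 10.76 (LP), so they also differed between the L-DKO replicates. Markers of NK and innate-like T cells (5 of 8) summed to 5.02 to 6.03 outside LP and to 7.32 and 7.60 in LP. The Y-linked gene Ddx3y was at 0.63 and 0.67 in LP replicate 2 and pTαKO, and at 4.21 to 5.14 in the other libraries. In bulk samples, fewer cells of a type and less RNA per cell cannot be told apart.

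Promoter windows of RefSeq (GRCm38.p6, from 250 bases before to 50 bases after an annotated start) were available for all 7 genes, 13 windows in all. The genes lie on chromosomes 11 (Tcf7), 3 (Lef1), 13 (Sox4), 16 (Runx1 and Ets2), 4 (Runx3) and 12 (Bcl11b), and exons and introns were not assigned to the windows. The windows were searched on both strands for E-box and factor motifs, because Id proteins act on E-box binding and the members bind the other motifs. The E-box form CAGCTG lay in 3 of the 13 windows, 1 each of Tcf7, Sox4 and Lef1, and in 16.3% of all 32851 windows of that length. The E-box form CACCTG, read on either strand, lay in 4 windows, against 20.2% of all, and the general form CANNTG, which includes the other forms, in 10 windows, against 72.3%. The windows at the neighbouring upstream starts of Lef1 overlap, and both count the same CANNTG site. The CACCTG matches, in 1 window each of Lef1, Runx3, Tcf7 and Runx1, are not shown. As examples of 1 E-box form, the 3 stretches with CAGCTG are shown, with the motif in capitals. That of Sox4 (minus strand) lies upstream of the gene, and those of Tcf7 (minus strand) and Lef1 (plus strand) lie within the annotated span of the gene, before an internal start.
Tcf7 chr11:52283156-52283185: cgcaccatgccgCAGCTGgactcgggcggg
Sox4 chr13:28953893-28953922: cagcagaaatctCAGCTGtacttctagccc
Lef1 chr3:131112574-131112603: actctgtctcagCAGCTGaggaaacctcac

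The RUNX motif ACCACA lay in 2 of the 13 windows, those at the upstream starts of Runx1 and Runx3, against 16.8% of all windows. Each held the motif as a pair, on 1 strand and 2 bases apart, within a run of 18 bases that both genes share exactly. Such a pair occurred in 7 of 32851 windows (0.0213%). The spacing was taken from the windows of Runx1 and Runx3, which are among the 7, so this share is a description. The pair of Runx3 (plus strand) lies before the start, and that of Runx1 (minus strand) lies just after it. The capitals mark the 2 copies of ACCACA in each stretch.
Runx1 chr16:92826025-92826054: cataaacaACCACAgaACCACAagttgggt
Runx3 chr4:135120506-135120535: cctcaACCACAgaACCACAaggccaggccc

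The TCF/LEF motif CTTTGA lay in 2 windows, 1 of Lef1 and the window of Bcl11b, against 16% of all windows. The window of Lef1 (plus strand, within the gene) held 2 copies, each read here as TCAAAG from the other strand, and that of Bcl11b (minus strand, within the gene) held 1. The copies are in capitals.
Lef1 chr3:131156110-131156185: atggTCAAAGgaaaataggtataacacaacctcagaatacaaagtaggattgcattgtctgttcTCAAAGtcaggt
Bcl11b chr12:108003486-108003515: agaggccaagcaCTTTGAagaagtgtgaga

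The ETS motif CCGGAA lay in 2 windows, 1 of Tcf7 and 1 of Runx1, against 14.9% of all, and the SOX motif AACAAT in 0 of 13, against 10.7%. The window of Ets2 held no match to any of these letters. A match is a description of these letters and not a binding site.

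The members spanned a wide range of abundance in DP cells, and their order was nearly the same in every genotype. On the log2(FPKM + 1) scale the mean levels over the 6 libraries were 10.69 for Tcf7, 8.49 for Ets2, 8.01 for Bcl11b, 7.61 for Lef1, 6.69 for Sox4, 6.62 for Runx1 and 1.72 for Runx3. Tcf7 ranked 27 of the 12063 genes tested by mean level, and its mean was 1662 FPKM. Ets2 ranked 208, Bcl11b 302, Lef1 430, Sox4 1004 and Runx1 1062, while Runx3, which in textbook accounts acts later, in CD8 lineage cells, ranked 10410 with a mean of 2.38 FPKM.

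**Figure D1:**
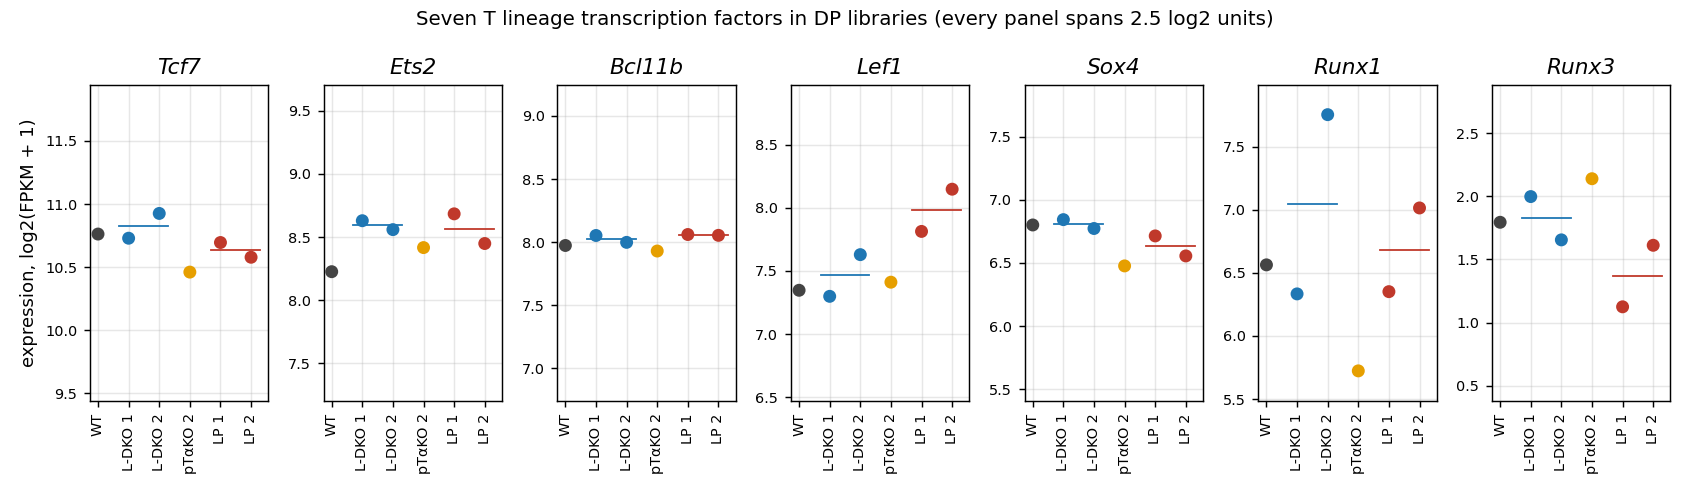
Expression of the 7 genes in each of the 6 libraries, as log2(FPKM + 1) on the vertical axis, with 1 panel per gene, 1 point per library and a line at the mean of each group of 2. Every panel spans the same 2.5 log2 units, so Bcl11b, between 7.93 and 8.06, appears nearly flat while Runx1 ranges from 5.72 to 7.75.

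Within a library, Tcf7 exceeded Ets2 in 6 of 6 libraries, by 4.03-fold to 5.80-fold, and Ets2 exceeded Bcl11b in 6 of 6, by 1.19-fold to 1.54-fold. Bcl11b lay above Lef1 in 5 of 6 libraries, the exception being LP replicate 2, and Lef1 lay above Sox4 in 6 of 6, by 1.37-fold to 3.02-fold. Sox4 and Runx1 were neighbours whose order was not stable. Sox4 was higher in 4 libraries, and Runx1 was higher in L-DKO replicate 2 and LP replicate 2. Runx1 exceeded Runx3 in 6 of 6 libraries, by 12-fold to 68.5-fold. These ratios are on the FPKM + 1 scale.

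The members differed in how far they varied between libraries. Bcl11b had a range of 0.131 log2 units from the lowest to the highest library, and only 1.12% of the 268 genes within 0.5 log2 units of its mean level had a smaller range (median of those genes, 0.468). Runx1 lay at the other end, with a range of 2.03 against a median of 0.531 for genes of like level, 95.9% of which had a smaller range. Lef1 had a range of 0.848, larger than in 85.3% of genes of like level. Sox4 (0.366, larger than in 24.0%), Tcf7 (0.465, 50%) and Ets2 (0.458, 51.2%) varied about as much as genes of their level or less. Runx3 had a range of 1.01 at a level where the median range was 1.53. The median range over all genes tested was 0.859.

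**Figure D2:**
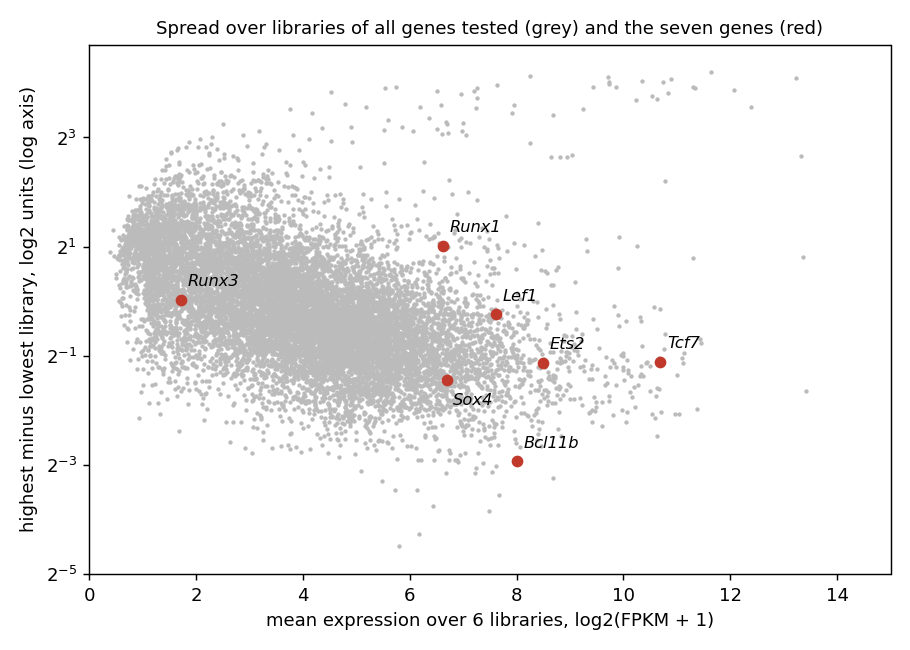
Range over the 6 libraries (highest minus lowest, log2 units, log axis) against mean expression as log2(FPKM + 1) for the 12063 genes tested in grey and the 7 members in red. Bcl11b, at a range of 0.131, lies at the lower edge of genes of its level, and Runx1, at 2.03, at the upper edge.

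Groups were compared with limma over all 12063 genes, with Benjamini-Hochberg adjustment and a threshold of 0.05. No member passed in any of the 6 contrasts, 0 of 7 in each. The background was low as well, since the share of all genes called was 0.0166% for LP against L-DKO, 0.0414% for L-DKO against WT, 0.0995% for LP against pTαKO, 0.116% for pTα-deficient against pTα-sufficient libraries, 0.0829% for Id-deleted against Id-intact libraries and 0.0497% for the interaction of the 2 deficiencies. At an unadjusted p under 0.05 stood 1 member in LP against L-DKO (Lef1), where 11.1% of genes did. In the other contrasts 0 members did, against 4.34%, 6.19%, 10.7%, 6.49% and 4.46% of genes in the same order. A p that misses the threshold does not show that 2 groups are alike, and the intervals given with each gene show what size of difference the libraries could not distinguish from 0. The contrasts share libraries and are not independent of each other.

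Tcf7 is required from the earliest T cell progenitors and remains high in DP cells. Its level was 10.76 (WT), 10.73 and 10.93 (L-DKO), 10.46 (pTαKO), 10.70 and 10.58 (LP). The 3 pTα-deficient libraries all lay below the 3 pTα-sufficient ones, by as little as 0.03 between LP replicate 1 and L-DKO replicate 1.

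The pooled difference of Tcf7 for pTα deficiency was -0.25 ± 0.17 (SE, 3 against 3 libraries), with a 95% interval from -0.67 to 0.18, and did not pass (limma adjusted p = 0.668). Within the Id-deleted background LP lay below L-DKO by -0.19 ± 0.19, and within the Id-intact background pTαKO lay -0.30 from WT, 1 library each and with no test. For Id deletion the pooled difference was 0.12 ± 0.17, with libraries of both kinds overlapping.

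Lef1 overlaps with Tcf7 in function in early thymocytes and DP cells. It stood at 7.35 (WT), 7.30 and 7.63 (L-DKO), 7.41 (pTαKO), 7.81 and 8.15 (LP), so both LP libraries lay above all others. Genes with this order made up 8.64% of those tested, and the only other member to do so was Bcl11b, by less than 0.01. LP was 1.43-fold above L-DKO (95% interval 1.01 to 2.03) at an unadjusted limma p of 0.0465, adjusted p = 0.442, and 1.48-fold above pTαKO (0.967 to 2.28, adjusted p = 0.799). L-DKO and WT differed by 0.12 ± 0.24 (-0.50 to 0.73), and pTαKO and WT by 0.06 with no test. The interaction, which is the excess in LP over the sum of the single differences, was 0.45 ± 0.34 (-0.42 to 1.33, adjusted p = 0.996). The marker sum of NK and innate-like T cells was also highest in the 2 LP libraries. Gzma, by far its most abundant gene, stood at 7.51 and 7.19 there against 4.66 to 5.95 elsewhere and dominated the sum. Zbtb16, Il2rb and Klrd1 were also highest in LP, but Ccl5 was highest in WT, at 2.93 against 1.79 and 2.56 in LP. The part of such cells in the level of Lef1 was not tested.

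A second entry with the symbol Lef1, whose relation to the first is not stated, had a mean of 1.90 FPKM. It read 1.13 (WT), 1.26 and 1.03 (L-DKO), 1.71 (pTαKO), 1.55 and 2.19 (LP), all low levels. In the first entry pTα-deficient and pTα-sufficient libraries overlapped. LP replicate 2 was the highest library in both entries.

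The distance between Tcf7 and Lef1 within a library was then read, since both bind the same motif. It was 3.42 log2 units (WT), 3.43 and 3.30 (L-DKO), 3.05 (pTαKO), 2.88 and 2.43 (LP). Tcf7 therefore exceeded Lef1 by 10.8-fold at most and 5.39-fold at least, and the ratio was smaller in each pTα-deficient library than in any pTα-sufficient one. This measure was chosen after the values were seen and has no test.

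**Figure D3:**
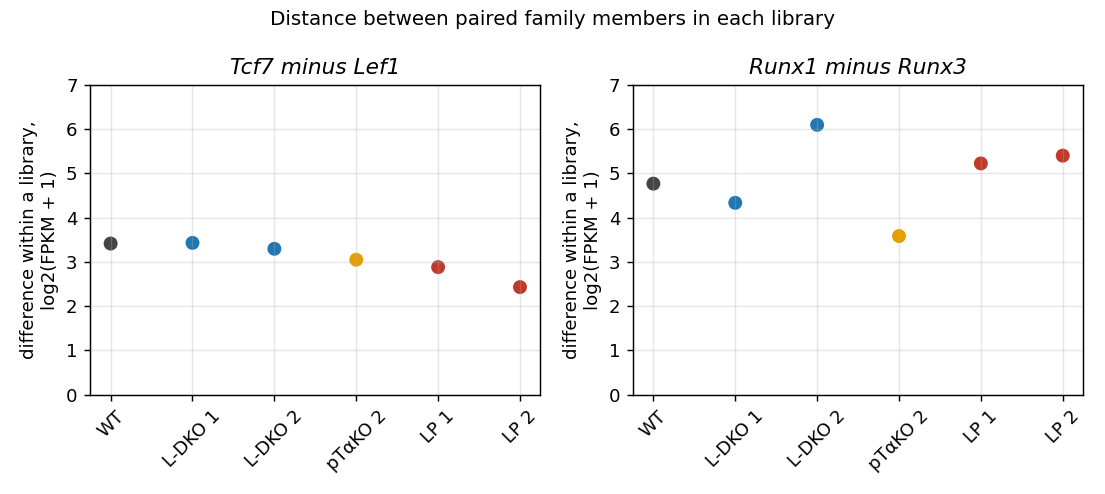
Difference within each library between Tcf7 and Lef1 (left) and between Runx1 and Runx3 (right), in log2(FPKM + 1) units, with 1 point per library. The distance of Tcf7 and Lef1 runs from 3.43 in L-DKO replicate 1 to 2.43 in LP replicate 2, and that of Runx1 and Runx3 from 3.58 in pTαKO to 6.10 in L-DKO replicate 2.

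Sox4 belongs to the SoxC group and is known for roles in early T cell development. Its levels were 6.80 (WT), 6.84 and 6.77 (L-DKO), 6.48 (pTαKO), 6.71 and 6.56 (LP). As for Tcf7, all 3 pTα-deficient libraries lay below all 3 pTα-sufficient libraries, so 2 of 7 members were lower without overlap, against 8.8% of genes tested.

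For Sox4 the pooled difference for pTα deficiency was -0.25 ± 0.12, a fold of 0.842 with a 95% interval of 0.680 to 1.04 (limma adjusted p = 0.542). LP lay -0.17 ± 0.14 from L-DKO, and pTαKO lay -0.32 from WT. Id deletion was accompanied by 0.08 ± 0.12. The lowest libraries of both Tcf7 and Sox4 were pTαKO and LP replicate 2, the same 2 that were low in Ddx3y. With a term for low Ddx3y in an additive model, chosen after seeing the data, the pTα difference was -0.14 for Tcf7 and -0.10 for Sox4. No pTα-sufficient library was low in Ddx3y. With the term the pTα difference therefore rests on LP replicate 1, the only pTα-deficient library that was not low. The pooled differences come from a model with a mean per genotype, so the shift from them is not that of the term alone. The DN marker sum, in which Dtx1 was the most abundant gene, and the macrophage marker sum were also higher in all 3 pTα-deficient libraries. The part of DN cells or macrophages in these results was not tested.

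Runx1 is a RUNX factor of developing T cells and takes part in TCR gene expression. It was at 6.56 (WT), 6.33 and 7.75 (L-DKO), 5.72 (pTαKO), 6.35 and 7.01 (LP). The replicates of L-DKO differed by more than any pair of groups did, 79.6 against 215 FPKM, and those of LP were 80.6 and 128 FPKM, so the groups overlapped except that pTαKO was lowest of all. The spread made the intervals wide. LP against pTαKO was 0.96 ± 0.63 (95% interval -0.68 to 2.60), and the pooled Id difference was 0.72 ± 0.45 (-0.44 to 1.88, limma adjusted p = 0.847). Leaving out L-DKO replicate 2 made this 0.36, and leaving out L-DKO replicate 1 made it 1.07. The difference of pTαKO from WT was -0.84, the only one of the 7 past 1.5-fold in that pair of single libraries, where 26.2% of genes were past 1.5-fold in either direction and 10.7% were lower by that much. For L-DKO and WT the value was 0.48 ± 0.63, and without L-DKO replicate 2 it was -0.23. LP against L-DKO also turned, from -0.36 to 0.35, without that library, so no direction can be given for either.

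Runx3 acts in CD8 lineage cells, where it silences Cd4, and in NK and innate-like T cells. Its levels were low, at 1.79 (WT), 2.00 and 1.65 (L-DKO), 2.14 (pTαKO), 1.12 and 1.61 (LP), or 1.18 to 3.40 FPKM. Both LP libraries lay below all others, as in 8.1% of genes. LP lay -0.46 ± 0.41 from L-DKO (95% interval -1.53 to 0.61, limma adjusted p = 0.707, and -0.21 without LP replicate 1 or -0.70 without LP replicate 2) and -0.77 ± 0.51 from pTαKO (-2.08 to 0.54, adjusted p = 0.883). Runx3 and Lef1 were thus at opposite ends in LP, and their correlation over the 6 libraries was -0.637, the most negative of the 21 pairs of members.

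The distance from Runx1 to Runx3 within a library was 4.77 log2 units (WT), 4.34 and 6.10 (L-DKO), 3.58 (pTαKO), 5.23 and 5.40 (LP). The L-DKO replicates lay at both sides of LP.

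Bcl11b is switched on at commitment and represses NK and progenitor genes in T cells. It was at 7.97 (WT), 8.05 and 7.998 (L-DKO), 7.93 (pTαKO), 8.06 and 8.05 (LP). The 4 Id-deleted libraries lay above the 2 Id-intact ones, by 0.02 at the nearest pair. The pooled Id difference was 0.09 ± 0.11, a fold of 1.06 (95% interval 0.874 to 1.30), and the pooled pTα difference was -0.01 ± 0.11 (0.818 to 1.21-fold). LP and L-DKO differed by 0.03 ± 0.13, a fold of 1.02 with an interval from 0.815 to 1.28 (limma adjusted p = 0.947). The intervals are wider than the whole range of Bcl11b over the libraries.

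Ets2 encodes an ETS factor that is expressed in thymocytes and responds to Ras and MAPK signalling. It was at 8.23 (WT), 8.63 and 8.56 (L-DKO), 8.42 (pTαKO), 8.68 and 8.45 (LP). All 4 Id-deleted libraries lay above both Id-intact ones, so Ets2 and Bcl11b made 2 of 7 members higher without overlap, against 6.94% of genes. The pooled Id difference of Ets2 was 0.26 ± 0.13, a fold of 1.20 (95% interval 0.946 to 1.51, limma adjusted p = 0.808). L-DKO was 1.29-fold above WT (0.926 to 1.80, adjusted p = 0.999), and LP was 1.11-fold above pTαKO (0.796 to 1.55, adjusted p = 0.939). LP and L-DKO overlapped and differed by -0.03 ± 0.15. In the additive model with the term for low Ddx3y the Id difference was 0.22.

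**Figure D4:**
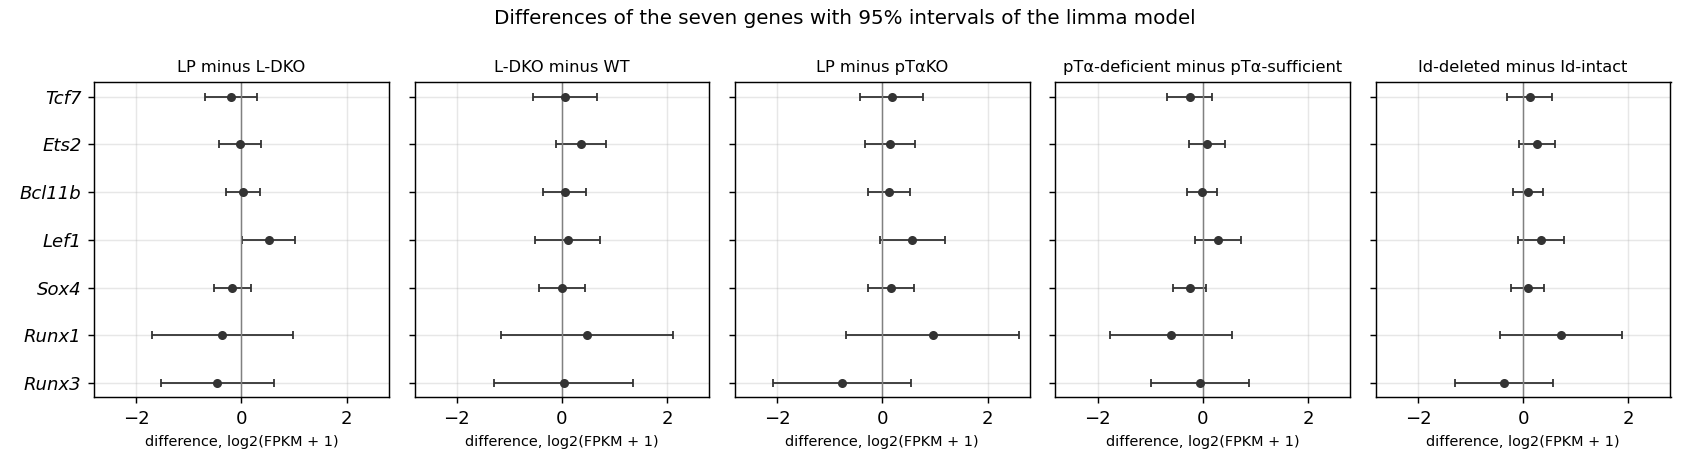
Differences of the 7 genes in 5 comparisons, on the log2(FPKM + 1) scale, as points with 95% intervals of the limma model fitted to 6 libraries. Every interval includes 0 except that of Lef1 in LP against L-DKO, from 0.01 to 1.02, and the widest are those of Runx1 and Runx3.

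In LP against L-DKO, 5 of 7 members did not overlap, against 44.5% of all genes tested. Lef1 and Bcl11b were the 2 higher ones (22.3% of genes) and Tcf7, Sox4 and Runx3 the 3 lower ones (22.2%). In L-DKO against WT the 2 of 7 that did not overlap, Bcl11b and Ets2, were higher, against 34.9% of genes higher and 64.6% in either direction. In LP against pTαKO none of the 7 overlapped, against 69.2% of genes, with 6 higher (33.9%) and Runx3 lower (35.3%). The contrasts with WT and pTαKO set 2 libraries against 1. In LP against L-DKO the absolute difference of Lef1 exceeded that of 72.7% of genes, Runx3 68.2%, Runx1 58.9%, Tcf7 35.2%, Sox4 32.0%, Bcl11b 6.23% and Ets2 5.49%. Runx1 had the highest such share in LP against pTαKO (88.6%) and in the pooled Id and pTα contrasts (90.2% and 82.6%), and in LP against pTαKO Runx3 was at 83.7% and Lef1 at 75.4%. The median difference of all genes was between -0.03 and 0.02 in the 6 contrasts.

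The genes most like each member over the 6 libraries were taken from 5874 or 5875 candidates of mean FPKM of at least 5 that varied by at least 0.5 log2 units. With so few points high correlations arise among many genes, and they are given as a description. Tcf7 was nearest to Vgll4 (Pearson r = 0.996), Gadd45a (0.981) and Cwc15 (0.980). Lef1 was nearest to Ankrd50 (0.994), Nsl1 (0.990) and Wipf2 (0.979), and Sox4 to Rhobtb2 (0.994), Sec24b (0.988) and Aggf1 (0.986). Between 6 genes (Ets2) and 23 genes (Sox4) reached an r of 0.95 with a member.

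Runx1 was nearest to St3gal4 (0.988), Pard6a (0.974) and Rn7s6 (0.973), and Runx3 to Slc27a4 (0.988), Dxo (0.983) and Rfc4 (0.981). Bcl11b was nearest to Atp1b3 (0.992), Rpusd4 (0.980) and Med7 (0.973), and Ets2 to Hs6st1 (0.985), Med22 (0.976) and Zscan26 (0.975). Among the members themselves, Sox4 and Tcf7 had the highest correlation (0.837), followed by Runx1 and Tcf7 (0.745), and the others lay between -0.637 and 0.645. These points share libraries.

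The families and partners of the members were described from fixed lists, none of whose genes passed the limma test in any contrast. Of the TCF/LEF and SOX family and its partners, 12 of 16 genes were measured, 7 higher and 5 lower in LP than in L-DKO, with a median of 0.16 against 0.00 for all genes. The co-repressor Aes was the most abundant at 8.70 to 9.22, and Ctnnb1, which encodes β-catenin, was at 6.72 to 7.12. Pygo2, a co-activator of β-catenin, differed by 0.30 ± 0.14 and Tle3, a Groucho family co-repressor, by 0.02 ± 0.15. The largest difference in LP against L-DKO was that of Sox13, a SOX factor of γδ T cells, which stood at 0.02 (WT), 0.53 and 0.47 (L-DKO), 1.72 (pTαKO), 2.12 and 2.13 (LP). Its difference was 1.63 ± 0.40 (adjusted p = 0.331), at levels near the filter. The γδ marker sum (3 of 6, with Sox13 among them) was 5.15 and 5.52 in LP and 4.32 to 4.98 elsewhere.

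Of the RUNX family and its partners, 4 of 6 were measured, 1 higher and 3 lower, with a median of -0.15. Cbfb, which encodes the shared partner CBFβ, was at 6.25 (WT), 6.29 and 6.24 (L-DKO), 6.08 (pTαKO), 6.07 and 5.88 (LP). Every pTα-deficient library lay below every pTα-sufficient one, with a pooled difference of -0.23 ± 0.13 (adjusted p = 0.592). Runx2, the third RUNX gene, ranged from 0.00 to 2.44, with both extremes in LP.

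Of the ETS family, 14 of 16 were measured, 4 higher and 10 lower in LP than in L-DKO, with a median of -0.15. For Id deletion 11 were higher and 3 lower, with a median of 0.17 against 0.00 for all genes. Ets1, the most abundant, was at 8.57 (WT), 8.65 and 8.67 (L-DKO), 8.19 (pTαKO), 8.48 and 8.54 (LP), so it lay above Ets2 in WT, both L-DKO libraries and LP replicate 2 but below it in pTαKO and LP replicate 1. Elf1 and Elf2, related ETS factors, each differed by -0.35 ± 0.14 between LP and L-DKO (limma adjusted p = 0.46 for each). Elk4, next to Ets1 in abundance, differed by -0.16 ± 0.13. Spib and Spi1, ETS genes of progenitor, B and myeloid cells, were higher in LP by 1.24 ± 0.42 and 1.17 ± 0.56. Both were highest or nearly so in pTαKO, at 3.70 and 3.79, where the macrophage marker sum was highest (8.38). Erf and Etv5, the next in size of difference, were lower in LP (-1.15 ± 0.69 and -0.98 ± 0.39).

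Of the NuRD chromatin complex, with which Bcl11b associates, 10 of 12 listed genes were measured, 3 higher and 7 lower in LP than in L-DKO, with a median of -0.17. Chd4, its remodelling ATPase, was at 7.45 (WT), 7.80 and 8.13 (L-DKO), 7.12 (pTαKO), 7.61 and 7.66 (LP). It was higher in every Id-deleted library than in the Id-intact ones, by 0.51 ± 0.14 (adjusted p = 0.702). Gatad2a (-0.35 ± 0.17), Hdac1 (-0.31 ± 0.16) and Mbd3 (-0.27 ± 0.13) did not pass for LP against L-DKO. Mbd2, also abundant, differed by 0.01 ± 0.15.

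Of 37 other T lineage factors 26 were measured, and 13 were higher and 13 lower in LP than in L-DKO, with a median of -0.01. Ikzf1, which encodes Ikaros, was at 8.12 (WT), 8.03 and 7.93 (L-DKO), 7.38 (pTαKO), 7.51 and 7.57 (LP), and its pooled pTα difference was -0.59 ± 0.11 (adjusted p = 0.205). Hes1, a Notch target, differed by 2.61 ± 0.49 between LP and L-DKO (adjusted p = 0.283), Mef2c by 2.48 ± 0.54, Zbtb16, which encodes PLZF, by 1.60 ± 0.49 and Klf2, a factor of mature T cells, by 1.60 ± 0.35. Hes1 and Mef2c also stand in the DN marker list. Myb (-0.47 ± 0.22), Klf13 (0.39 ± 0.13) and Ikzf3 (0.00 ± 0.15) were the other abundant ones.

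Known targets of TCF-1 and LEF-1 were measured for 10 of 14 genes, 7 higher and 3 lower in LP than in L-DKO, with a median of 0.16. Cd3g (0.25 ± 0.14), Cd3e (0.31 ± 0.18) and Cd3d (0.07 ± 0.16), which encode CD3 chains, and Cd4 (-0.31 ± 0.16) were the most abundant, and Ccnd2 (0.92 ± 0.74) and Myc (0.71 ± 0.22) had the largest differences. Known targets of RUNX and BCL11B were measured for 12 of 15 genes, 5 higher and 7 lower, with a median of -0.05. Cd8a (-0.09 ± 0.15), Cd8b1 (-0.01 ± 0.18) and Cd247 (0.11 ± 0.18) differed little, while Cd5, an inhibitory receptor set by TCR signal, was at 7.05 (WT), 7.37 and 7.45 (L-DKO), 5.16 (pTαKO), 5.999 and 5.67 (LP), a difference between LP and L-DKO of -1.58 ± 0.17 (adjusted p = 0.120). Il2rb, a cytokine receptor chain of NK and innate-like T cells, differed by 1.73 ± 0.46 and Cd6, a receptor related to Cd5, by -0.99 ± 0.24, and neither passed.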

How the data were processed

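RNA-Seq of sorted DP thymocytes was analysed for 6 libraries. Upstream steps follow the submitters' processing notes, which name Trimmomatic 0.32, TopHat2 2.0.9, Cufflinks 2.2.0 and mm10 (GRCm38). The authors deposited log2 FPKM per gene, taken here as log2(FPKM + 1) because values begin at 0. Genes of low quality had been removed by a rule not given in the sources used here, so a missing gene is only not measured. Columns of group means and of the authors' own differences were not used.

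The table held 13097 entries with 12092 symbols, and hyphens were restored in 297 symbols. Of repeated symbols the most abundant entry was used. The 12063 genes whose mean FPKM reached 0.5 entered 1 model with a mean per genotype (limma 3.58.1, R 4.3.3, eBayes with trend). It has 2 residual degrees of freedom and 2.88 from the prior, and WT and pTαKO, with 1 library each, were assumed to vary like the others. Pooled contrasts weight group means equally. Adjustment was by Benjamini-Hochberg within each contrast at 0.05. Errors are SE, and differences are on the log2(FPKM + 1) scale, which understates changes of low genes such as Runx3. Members and lists were chosen with earlier results of these data known. In each list, genes were named from up to 4 of highest mean FPKM and up to 4 of largest difference between LP and L-DKO. Not all of those are given. For each member the 3 genes most like it are named. The code was tested on simulated data. Marker sums are log2(summed FPKM + 1). Alternatives changed the pseudocount, filter, scaling, entry rule, prior, model and libraries. Coordinates and promoter sequences are of RefSeq GRCm38.p6.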

Additional observations from a re-analysis of the deposited data

Results flagged for a closer look

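In 2 members every LP library lay to one side of both L-DKO libraries and pTαKO lay to the opposite side of WT. The means of Ets2 also differed in direction (0.19 for pTαKO and WT, -0.03 for LP and L-DKO), but its LP and L-DKO libraries overlapped. Runx3 was higher in pTαKO than in WT by 0.35 and the 2 LP libraries lay below L-DKO, a difference of the differences of -0.80 ± 0.72 on the log2 scale (limma interaction, 95% interval -2.66 to 1.05, adjusted p = 0.996). Bcl11b was lower in pTαKO than in WT (difference -0.044), and the 2 LP libraries lay above L-DKO, with a difference of the differences of 0.076 ± 0.22 (-0.49 to 0.64, adjusted p = 0.996). Neither passed the test, and the Id-intact side rests on 1 library per genotype.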

How the results depend on the processing

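No member passed under any alternative, and of 596 member values 570 kept their direction and 26 turned. The smallest adjusted p of a member over the alternatives was 0.415 (Sox4 in L-DKO against WT, with libraries scaled to equal total FPKM). For Lef1 in LP against L-DKO it was 0.42, with values from 0.35 to 0.68. The deviations of replicate 1 from its group mean in L-DKO and in LP had a correlation of 0.035 over 12063 genes. With so few libraries this cannot show whether replicate numbers pair the mice. With a replicate block 2 genes were called for LP against L-DKO, and Lef1 stayed at 0.52 (limma adjusted p = 0.42). Counts of called genes moved more. With libraries scaled to equal total FPKM they were 204, 163, 163, 291, 252 and 138 for LP against L-DKO, L-DKO against WT, LP against pTαKO, pTα, Id and the interaction. That scaling shifted the median gene by -0.01, -0.90, -0.21, -0.35, -0.56 and 0.69, and member values under it are relative to that shift, while counts and p values include it. Without the trend the counts were 1 for LP against L-DKO, 0 for L-DKO against WT, 3 for pTα and 5 for Id. With a mean FPKM of at least 5 there were 4 for LP against L-DKO. With entries summed there were 3 for L-DKO against WT and 7 for LP against pTαKO. The additive model gave 32 for pTα and 2 for Id, with the Ddx3y term (chosen after seeing the data) 4 and 2, without pTαKO 2 and 5, and without WT 3 for pTα. Leaving out each L-DKO or LP library gave 2 to 12, 0 to 13, 4 to 21, 8 to 20 and 4 to 15 for LP against L-DKO, L-DKO against WT, pTα, Id and the interaction. The causes were not tested.

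In the additive model with the Ddx3y term the pTα difference of Runx3 was -0.62, against -0.06 in the main model, without turning. The main model has a mean per genotype, so this shift includes the change of model as well as the term. With the term the pTα difference rests on LP replicate 1, the only pTα-deficient library not low in Ddx3y. Leaving out libraries, LP against L-DKO ranged from -0.15 to 0.090 for Ets2 and from -1.07 to 0.35 for Runx1. L-DKO against WT ranged from -0.048 to 0.28 for Lef1, -0.23 to 1.19 for Runx1, -0.14 to 0.20 for Runx3, -0.028 to 0.042 for Sox4 and -0.033 to 0.16 for Tcf7. The pTα difference ranged from -0.020 to 0.0075 for Bcl11b and -0.18 to 0.065 for Runx3, and the interaction of Runx1 from -0.23 to 1.19. Scaling to equal totals turned L-DKO against WT to -0.065 for Bcl11b, -0.10 for Sox4 and -0.056 for Tcf7, the pTα difference of Runx3 to 0.020 and pTαKO against WT for Lef1 to -0.026. Median centring gave -0.024 for Sox4 in L-DKO against WT and -0.011 for Lef1 in pTαKO against WT. The additive model turned Bcl11b for pTα to 0.0065, to 0.025 with the Ddx3y term and to 0.032 without pTαKO or WT, where Ets2 was -0.028, and without pTαKO it turned Runx3 for Id to 0.032. The model had 2 residual degrees of freedom and depth is unknown, and the intervals of Runx1 and Runx3 were the widest of the members.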

Other observations

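Bach2, a repressor of effector programs in T cells, was singled out among the other T lineage factors after its values were seen. It was at 1.62 (WT), 1.27 (pTαKO), 4.31 and 3.71 (L-DKO), 5.13 and 4.91 (LP), so every Id-deleted library lay above both Id-intact ones. The pooled Id difference was 3.07 ± 0.28 on the log2(FPKM + 1) scale, with a limma adjusted p of 0.0922 that did not pass. Tox, a factor of thymocyte selection chosen in the same way, was at 4.64 (WT), 4.68 and 4.80 (L-DKO), 3.57 (pTαKO), 3.83 and 4.07 (LP) (pooled pTα difference -0.93 ± 0.18, adjusted p = 0.220).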
